A study of Homo sapiens with 14 samples.

Results

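Genes of 4 cell adhesion and guidance systems were described in U2OS, a human osteosarcoma cell line, across activation of the transcription factor E2F1 and knockdown of the transcription factors FOXO1 and FOXO3. Members were the integrin subunits (symbols beginning with ITGA or ITGB), the cadherins with a CDH symbol and a number, the semaphorins with their plexin and neuropilin receptors (SEMA, PLXN, NRP1 and NRP2), and the ephrins with their Eph receptors (EFNA, EFNB, EPHA and EPHB). They were chosen by symbol among probe sets annotated to 1 gene, and 88 of the 11963 genes on the array qualified, through 155 probe sets. Where a gene had several probe sets, the brightest on average was used. Of the 88 members, 41 lay above a filter on low signals and entered the tests with 7720 genes in all, and 47 lay below it. The tested members were 7 of 16 integrin alpha subunits, 5 of 7 integrin beta subunits, 4 of 18 cadherins, 5 of 18 semaphorins, 8 of 10 plexins and neuropilins, 5 of 8 ephrins, 5 of 9 Eph receptors and 2 genes that share the ITGB symbol without being integrin subunits. ITGB3BP is a centromere protein and ITGBL1 a secreted protein with integrin-like repeats.

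All cells stably expressed ER-E2F1, a fusion of E2F1 with an estrogen receptor domain that 4-hydroxytamoxifen (OHT) activates, and all were infected with a lentivirus. The arms with OHT were shFOXO707 (2 arrays), shFOXO33 (2 arrays) and the scrambled hairpin (4 arrays). The arms without OHT were shFOXO707 (1 array), shFOXO33 (1 array) and the scrambled hairpin (4 arrays). Each of the FOXO hairpins was directed against FOXO1 and FOXO3 together. Serum was withdrawn for 24 h, starting 24 h after infection, and the cells were then kept in serum-free medium with or without 20 nM OHT for 6 h, so every array comes from serum-starved cells. No arm received OHT without ER-E2F1, so effects of the drug and of the fusion protein cannot be told apart, and no arm tells the knockdown from other differences between the viruses. The questions were how these genes respond to active E2F1 and whether the FOXO hairpins change their levels or their response.

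Integrins are heterodimers of an alpha and a beta subunit that bind the extracellular matrix outside the cell and, through talin, kindlin and other adaptors, the actin cytoskeleton inside it. Which alpha and beta subunits a cell makes sets which matrix proteins it can hold. Cadherins join cells to each other through calcium-dependent contacts between like molecules and are anchored by catenins. Semaphorins are secreted or membrane-bound guidance cues read by plexins, with neuropilins as co-receptors for the secreted class, and ephrins are cell-bound ligands of the Eph receptor tyrosine kinases. In bone these systems are known from osteoblast and osteoclast contacts.

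The targets read lower on every hairpin array than on the scrambled arrays of the same treatment. The pooled knockdown difference was called for FOXO1 with OHT (log2 difference -1.29, adjusted p = 4.61e-05) and without OHT (-0.99, adjusted p = 0.00386), and for FOXO3 with OHT (-1.81, adjusted p = 0.000963) but not without OHT (-1.14, adjusted p = 0.079). OHT itself raised both in scrambled cells, FOXO1 by 2.118 (adjusted p = 1.45e-08) and FOXO3 by 1.963 (adjusted p = 4.9e-05) on the log2 scale. FOXO1 thus read 140 to 254 in knockdown cells with OHT, above the 92.4 to 112 of scrambled cells without OHT. With OHT, FOXO1 signal stood at 47.1% of the scrambled mean with shFOXO707 and at 32.4% with shFOXO33, and FOXO3 signal at 45.1% with shFOXO707 and 17.1% with shFOXO33. Without OHT the FOXO1 values were 37.9% with shFOXO707 and 47.7% with shFOXO33, and the FOXO3 values 60.9% with shFOXO707 and 30.7% with shFOXO33. The E2F1 probe set had a log2 difference of -0.094 (adjusted p = 0.528) for knockdown against scrambled cells with OHT. Across the tested genes, which are not independent replicates, arrays of the same group correlated at r from 0.992 to 0.994 and arrays of different hairpins with the same treatment at r from 0.956 to 0.958. The median signal was 114 to 119 on arrays with OHT and 137 to 143 on arrays without OHT. The ratio of 3′ to 5′ signal of ACTB, which reports on RNA degradation, ranged over 1.95 to 2.04 on shFOXO707 arrays with OHT, over 1.60 to 1.63 on shFOXO33 arrays with OHT and over 1.60 to 1.74 on scrambled arrays with OHT. Of 11 osteoblast markers on the array, 6 lay above the filter, and RUNX2, IBSP, DLX5, PHEX and DMP1 lay below it. Their summed signal was 9125 to 9347 with shFOXO33 and OHT and 11390 with shFOXO33 alone, against 16090 to 20350 in the other 4 arms. SPARC, one of them, averaged 804 with shFOXO33 and OHT, against 8802 in scrambled cells with OHT. The other markers above the filter did not share a fall of this size. In the same comparison COL1A1 averaged 7152 against 7428, MSX2 538.5 against 904.2 and COL1A2 156.1 against 188.2. SPP1 (235.6 against 210.5) and ALPL (233 against 110.4) were higher. The summed signal of 10 epithelial markers, of which 4 lay above the filter, was 3704 to 3839 with shFOXO707 and OHT and 6116 to 6461 with shFOXO33 and OHT, against 5337 to 5636 in scrambled cells with OHT. Of those 4, KRT18 (2138 against 3507) and KRT8 (914 against 1473) were lower with shFOXO707 and OHT than in scrambled cells with OHT. EPCAM (402 against 268.9) and MUC1 (130.7 against 79.87) were higher. The summed signal of 9 neural markers, 4 of them above the filter, was 12260 to 12710 with OHT and 9719 to 10370 without OHT in scrambled cells. TUBB3 (7478 against 6651) and NEFL (4482 against 2783) averaged higher with OHT there, and SNAP25 (298.8 against 322.5) and OLIG2 (76.97 against 106.8) lower. Endothelial markers summed to 218 to 383 and blood cell markers to 257 to 364 over all arrays. The part of these differences in the results below was not tested.

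The RefSeq promoter table (GRCh38.p14) held 66 of the 88 members and 34 of the 41 tested ones. The 250 bases before the annotated start were searched on both strands for E2F motifs, FOXO motifs and the GC box of SP1-family factors. The E2F letters were TTGGCGC and the related forms TTCCCGC as well as TTCGCGC as well as TTGCCGC. The FOXO letters were GTAAACA together with ATAAACA, and those of the GC box were GGGCGGG. The E2F letters were shortened by 1 after the longer form with a further T in front had matched 0 of the 66 members and 2.8% of all 27305 promoters. An E2F motif stood in 5 of the 66 promoters (7.6%), a share below that of all promoters (11.0%) and of the tested genes (18.7%). A FOXO motif stood in 3 of 66 (4.5%), against 6.6% of all promoters and 3.4% of the tested genes. A GC box stood in 36 of 66 (54.5%), against 31.4% of all promoters and 54.1% of the tested genes. The 66 include members below the filter, and the tested genes do not. Among the 34 tested members with a promoter, the shares were 5.9% for E2F, 2.9% for FOXO and 61.8% for the GC box. A match describes letters in this window and nothing about binding. The promoters below are those of 2 plexins that OHT raised and had no E2F match, of the called members with an E2F match (PLXNB2 and EFNA4) or a FOXO match (ITGA6), and of SEMA3F, which both hairpins lowered. They run 5′ to 3′ on the gene's strand, with capitals on E2F and FOXO matches.
PLXND1: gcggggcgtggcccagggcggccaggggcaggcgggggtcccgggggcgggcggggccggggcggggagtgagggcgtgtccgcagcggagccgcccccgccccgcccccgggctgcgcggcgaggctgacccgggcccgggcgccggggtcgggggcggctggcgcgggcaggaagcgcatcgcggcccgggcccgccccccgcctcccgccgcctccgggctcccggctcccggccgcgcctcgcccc
PLXNA3: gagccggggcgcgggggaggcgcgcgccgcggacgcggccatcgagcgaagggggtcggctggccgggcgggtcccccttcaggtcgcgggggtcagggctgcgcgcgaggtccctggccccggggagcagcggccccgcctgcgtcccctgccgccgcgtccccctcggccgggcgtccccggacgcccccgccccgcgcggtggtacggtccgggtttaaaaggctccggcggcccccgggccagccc
PLXNB2: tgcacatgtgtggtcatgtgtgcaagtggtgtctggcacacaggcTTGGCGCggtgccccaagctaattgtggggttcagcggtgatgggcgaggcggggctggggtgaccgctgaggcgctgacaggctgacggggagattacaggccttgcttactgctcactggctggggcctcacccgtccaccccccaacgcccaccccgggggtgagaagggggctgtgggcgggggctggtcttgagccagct
EFNA4: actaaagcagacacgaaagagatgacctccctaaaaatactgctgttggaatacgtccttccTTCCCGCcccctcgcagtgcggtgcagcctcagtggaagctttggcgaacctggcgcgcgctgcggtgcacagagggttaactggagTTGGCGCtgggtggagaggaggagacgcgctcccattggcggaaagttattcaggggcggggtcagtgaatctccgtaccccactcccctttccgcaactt
ITGA6: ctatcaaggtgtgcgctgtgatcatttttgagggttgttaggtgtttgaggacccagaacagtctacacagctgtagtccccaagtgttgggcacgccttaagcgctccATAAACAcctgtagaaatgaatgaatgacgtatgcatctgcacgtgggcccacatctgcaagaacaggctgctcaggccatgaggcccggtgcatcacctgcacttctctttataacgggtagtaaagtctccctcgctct
SEMA3F: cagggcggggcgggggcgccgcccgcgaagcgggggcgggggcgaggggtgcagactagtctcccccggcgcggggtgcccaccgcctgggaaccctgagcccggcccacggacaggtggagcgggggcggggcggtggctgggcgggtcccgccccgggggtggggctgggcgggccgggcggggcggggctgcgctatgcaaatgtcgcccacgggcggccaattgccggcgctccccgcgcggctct
These windows lie at chr3:129606677-129606926 (minus strand), chrX:154458031-154458280 (plus strand), chr22:50301670-50301919 (minus strand), chr1:155063490-155063739 (plus strand), chr2:172427086-172427335 (plus strand) and chr3:50154808-50155057 (plus strand). The PLXNB2 match begins 205 bases before the start, those of EFNA4 188 and 101 bases before it, and the FOXO match of ITGA6 141 bases before it. 1 EFNA4 match overlaps a GC box. PLXND1 has 6 GC boxes in a window of 88.8% G and C, and SEMA3F has 9 in one of 82.0%. The 5 plexins called higher with OHT held 0 E2F and 0 FOXO matches, and 4 of the 5 held a GC box. Of all tested genes called higher with OHT, 21.1% held an E2F motif, 3.5% a FOXO motif and 64.9% a GC box. With 5 promoters the plexin counts cannot be told apart from these shares.

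Most of the tested members differed between OHT and no OHT, as did most of all tested genes. In scrambled cells, plexins, ephrin ligands and the laminin-binding integrin pair ITGA6 and ITGB4 were mostly higher with OHT. Most tested cadherins, ITGB8 and ITGA2 were lower, and Eph receptors went both ways. Calls are limma's, with p-values adjusted by Benjamini-Hochberg over 7720 genes and a threshold of 0.05, and differences are on log2(signal + 16). Of the 41 members, 15 were called higher and 16 lower with OHT, and 10 were not called. Over all tested genes 24.0% were called higher and 46.4% lower, so a call by itself is common in this comparison. These are also the shares to set beside the family counts below, which rest on few genes each. The median log2 difference was -0.028 over the members and -0.23 over all tested genes. In 29 of the 31 called members the arrays with and without OHT did not overlap, and EPHB1 and NRP1 were the exceptions. Overlap was not counted over all tested genes, so this count shows nothing particular to the members. Genes were named partly for this lack of overlap, which therefore adds no support to their calls. After centring each array on its median the counts were 18 higher and 10 lower (2494 and 2366 of all 7720 genes), so the balance between rises and falls depends on the scaling. Array signals of different genes are not on 1 scale, and levels are compared below only between arrays of the same probe set. Fewer cells with a transcript and less transcript per cell cannot be told apart in these bulk samples.

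**Figure D1:**
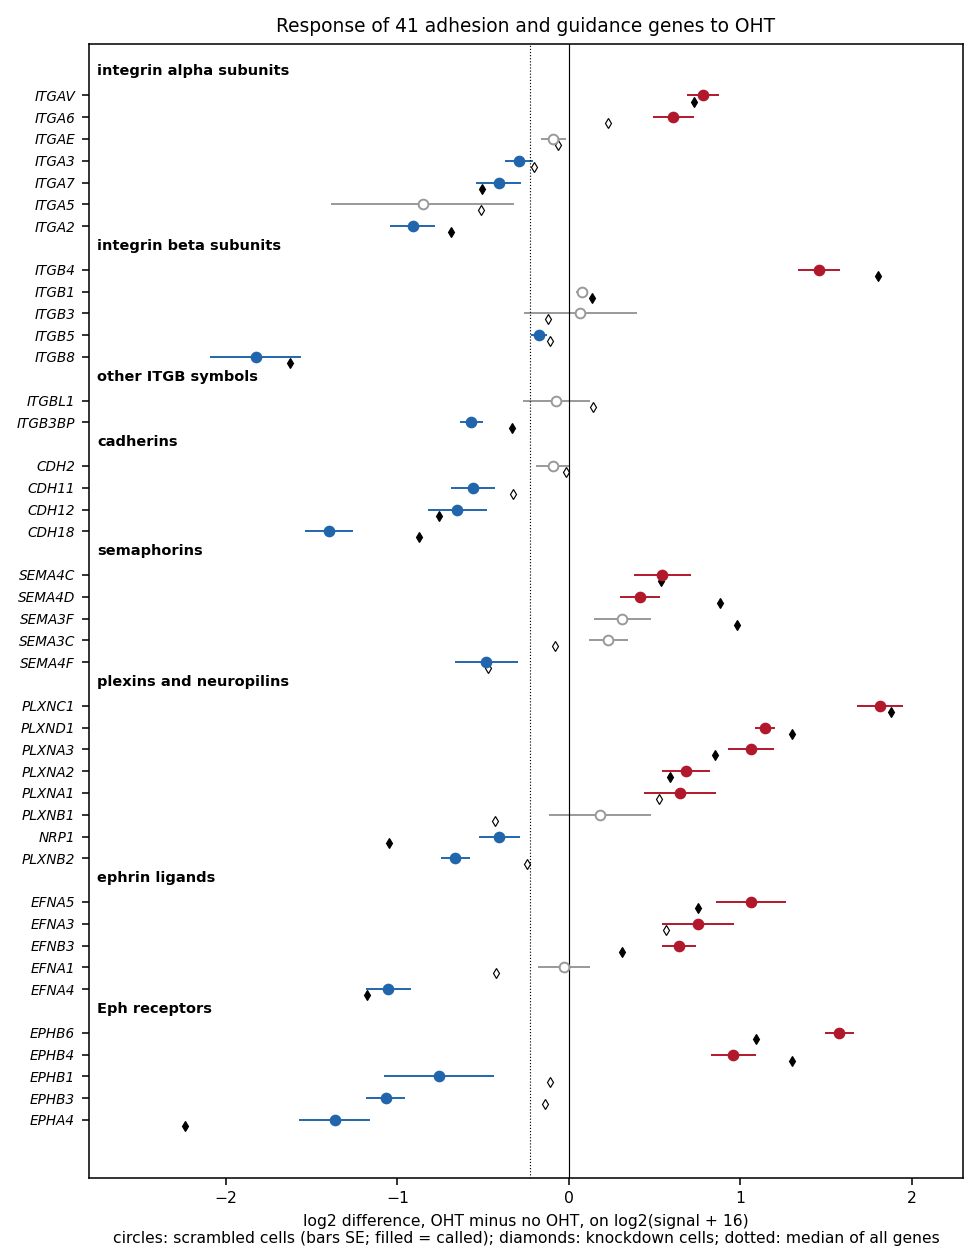
Log2 difference between OHT and no OHT for the 41 tested members, by family. Circles with SE bars are scrambled cells (n = 4 arrays each, filled where called), diamonds are knockdown cells with the hairpins pooled (4 arrays with OHT, 2 without, filled where called), and the dotted line is the median of all 7720 genes at -0.23. PLXNC1, EPHB6 and ITGB4 lie farthest to the right in scrambled cells, and ITGB8, CDH18 and EPHA4 farthest to the left.

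Among integrin alpha subunits 2 of 7 rose and 3 fell. ITGAV, the alpha subunit of the vitronectin receptors, read 5683, 5539, 5931 and 5331 with OHT, against 3419, 3646, 3499 and 2595 without OHT. Its log2 difference was 0.78 (SE 0.092, adjusted p = 4.12e-06). ITGA6, a laminin receptor subunit, read 1405, 1649, 1207 and 1337 with OHT and 824, 1010, 957 and 845 without OHT. Its log2 difference was 0.61 (SE 0.12, adjusted p = 0.000383), but the other probe set of ITGA6 above the filter had a log2 difference of 0.078 (adjusted p = 0.569). ITGA2, the collagen-binding alpha subunit, read 61.4, 74.5, 69.6 and 74.7 with OHT, against 148, 165, 136 and 134 without OHT. ITGA2 fell with a log2 difference of -0.91 (SE 0.13, adjusted p = 2.93e-05). The other laminin receptor subunits made smaller moves that depended on the scaling. ITGA7 stood at 404 to 500.2 with OHT and 541 to 666 without OHT (log2 difference -0.41, adjusted p = 0.0124). ITGA3 stood at 598 to 724 with OHT and 763 to 867 without OHT (log2 difference -0.29, adjusted p = 0.00659). After median centring the log2 difference of ITGA7 was -0.18 (adjusted p = 0.236) and that of ITGA3 -0.065 (adjusted p = 0.526), and after quantile normalization that of ITGA7 was -0.27 (adjusted p = 0.0849). ITGAE, the partner of ITGB7 on lymphocytes, had a log2 difference of -0.09 (adjusted p = 0.273). ITGA5, the fibronectin receptor subunit, read 248, 216, 273 and 239 with OHT, against 482, 446, 434 and 449 without OHT. These arrays did not overlap, yet the gene missed the call at -0.85 (SE 0.53, adjusted p = 0.167), because the hairpins set ITGA5 far apart and that spread entered the pooled error. In the fit with 6 groups that keeps the hairpins apart, the same difference had an SE of 0.079 and an adjusted p of 5.88e-08. In that fit 18 members were higher and 17 lower with OHT in scrambled cells, against 27.3% and 54.1% of all tested genes.

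Of 5 integrin beta subunits, 1 rose and 2 fell. ITGB4, the partner of ITGA6 in hemidesmosomes, read 275, 308, 270.0 and 314 with OHT, against 94.8, 73.8, 116 and 102 without OHT. Its mean was 292 ± 22.4 (SD, n = 4) with OHT and 96.8 ± 17.7 (SD, n = 4) without OHT, a log2 difference of 1.46 (SE 0.12, adjusted p = 1.61e-07). ITGB8, a partner of ITGAV that activates latent TGF-beta, read 156, 135, 86.2 and 144 with OHT and 475, 486, 494 and 517 without OHT. This was the deepest fall among the tested members at -1.83 (SE 0.26, adjusted p = 2.84e-05), and the other probe set of ITGB8 above the filter was also lower (log2 difference -0.49, adjusted p = 0.00754). ITGB5, a further partner of ITGAV, was slightly lower (log2 difference -0.17, adjusted p = 0.00582). That sign turned with median centring, at 0.052 (adjusted p = 0.368), and the mean of its probe sets was not called. ITGB1, which pairs with most alpha subunits, had a log2 difference of 0.076 (adjusted p = 0.0689) and ITGB3, a partner of ITGAV, one of 0.068 (adjusted p = 0.863). Of the genes that share only the symbol, ITGB3BP fell (log2 difference -0.57, adjusted p = 3.1e-06) and ITGBL1 was not called (log2 difference -0.073, adjusted p = 0.75), although its other probe set was lower (-0.67, adjusted p = 0.00166).

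**Figure D2:**
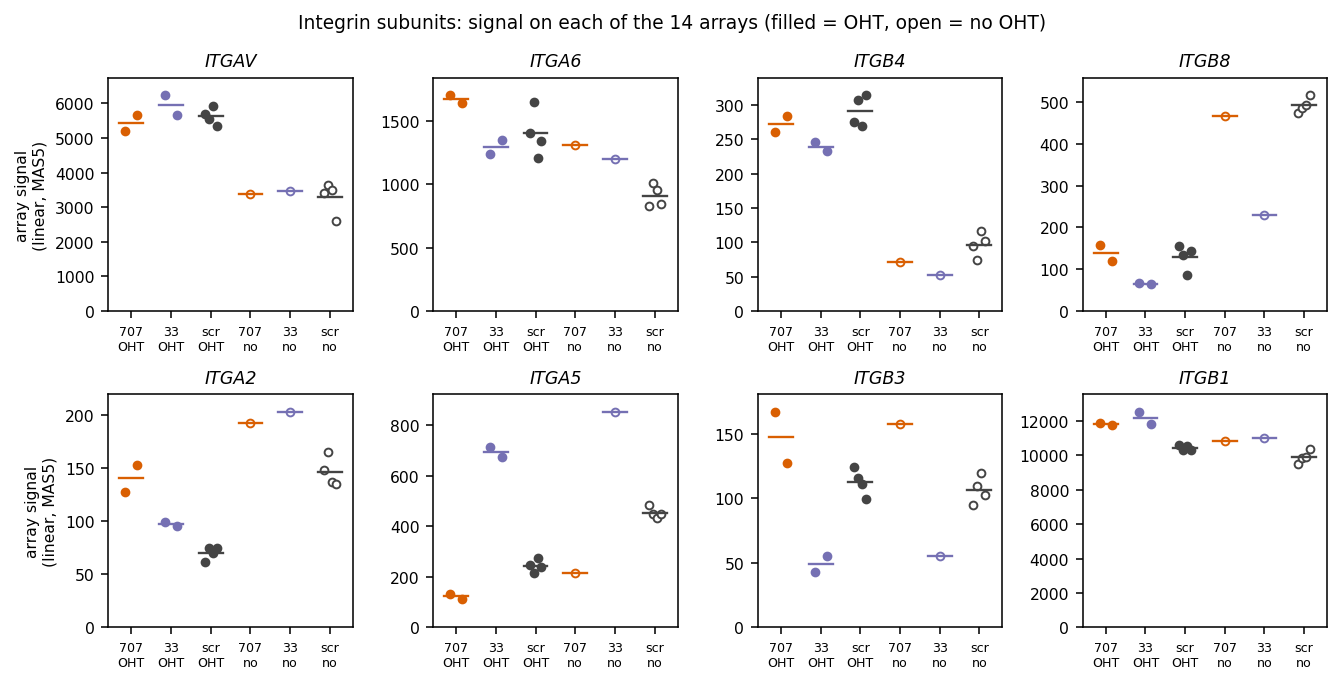
Signal on each of the 14 arrays for 8 integrin subunits, in linear MAS5 units, with arms ordered shFOXO707, shFOXO33 and scrambled (scr) with OHT (filled) and then without OHT (open). Horizontal lines are arm means. ITGB4 and ITGAV are higher with OHT in every arm, ITGB8 is lower with OHT in every arm, and ITGA5 is lowest with shFOXO707 and highest with shFOXO33 under both treatments.

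Cadherins were lower with OHT in 3 of 4 tested members and higher in 0. CDH18, a cadherin known mainly from brain, read 119, 122, 146 and 102 with OHT, against 365, 339, 350.9 and 334 without OHT, and its log2 difference was -1.40 (SE 0.14, adjusted p = 7.15e-07). CDH12, also known from brain, read 184, 188, 167 and 215 with OHT and 276, 261, 347 and 339 without OHT (log2 difference -0.65, adjusted p = 0.00394). CDH11, the osteoblast cadherin, stood at 653 to 693 with OHT and 916 to 1038 without OHT. CDH11 was called lower (log2 difference -0.56, adjusted p = 0.00145), but this probe set can bind several transcripts and the other one had a log2 difference of -0.28 (adjusted p = 0.072). CDH2, N-cadherin, read 768 to 838 with OHT and 742 to 1024 without OHT and was not called (log2 difference -0.092, adjusted p = 0.417).

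Of 5 tested semaphorins, 2 were higher and 1 was lower with OHT, and after median centring 4 were higher and 0 lower. SEMA4C and SEMA4D, membrane-bound semaphorins that signal through B-class plexins, were higher with OHT. SEMA4C read 890.2 to 1289 with OHT and 687 to 751 without OHT (log2 difference 0.55, adjusted p = 0.00936). SEMA4D read 231, 226, 179 and 224 with OHT and 176, 161, 156 and 137 without OHT (log2 difference 0.41, adjusted p = 0.00608). SEMA4F was lower (log2 difference -0.48, adjusted p = 0.0297), though not with either other scaling, where its log2 difference was -0.25 (adjusted p = 0.233) after median centring and -0.27 (adjusted p = 0.198) after quantile normalization. The secreted SEMA3C was not called (log2 difference 0.23, adjusted p = 0.0894). SEMA3F, the secreted ligand of NRP2, read 1253, 1322, 1282 and 1276 with OHT, against 954, 1044, 1109 and 1018 without OHT. Its arrays were apart, and it missed the call at 0.31 (SE 0.17, adjusted p = 0.111) for the reason given for ITGA5. With the hairpins kept apart, the difference had an SE of 0.057 and an adjusted p of 1.11e-04. The other SEMA3F probe sets above the filter went both ways with the hairpins pooled. Their log2 differences were 0.21 (adjusted p = 0.398) and -0.31 (adjusted p = 0.0702).

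Of 7 tested plexins, 5 were called higher with OHT under the deposited scaling and under both other scalings. PLXNC1, the receptor of SEMA7A, read 785, 772, 767 and 796 with OHT, against 222, 227, 203 and 191 without OHT. Its mean was 780.0 ± 13.1 (SD, n = 4) with OHT and 211 ± 16.6 (SD, n = 4) without OHT, and the log2 difference of 1.81 (SE 0.13, adjusted p = 3.62e-08) was the highest among the tested members. PLXND1, the receptor of SEMA3E, read 1319, 1403, 1312 and 1271 with OHT and 570.5, 591, 584 and 616 without OHT. The PLXND1 arrays were tight within each group, and the log2 difference was 1.15 (SE 0.058, adjusted p = 9.1e-10). PLXNA3, a signalling partner of neuropilins, read 224, 194, 201 and 255 with OHT, against 95.5, 92.3, 95.3 and 99.9 without OHT (log2 difference 1.06, adjusted p = 8.45e-06). The related PLXNA2 read 251 to 325 with OHT and 153 to 198 without OHT (log2 difference 0.68, adjusted p = 0.000669). PLXNA1 read 1012 to 1316 with OHT and 659.5 to 846 without OHT (log2 difference 0.65, adjusted p = 0.0135), and its other probe set had 0.25 (adjusted p = 0.17). Of the tested B-class receptors, PLXNB2 was called lower and PLXNB1 was not called, and the classes were not tested against each other. PLXNB2, a receptor of SEMA4C and SEMA4D, read 1492, 1786, 1578 and 1860 with OHT, against 2724, 2770, 2585 and 2542 without OHT, and was lower with a log2 difference of -0.66 (SE 0.085, adjusted p = 9.54e-06). PLXNB1, the high-affinity receptor of SEMA4D, was not called (log2 difference 0.18, adjusted p = 0.595). NRP1, the co-receptor of SEMA3A and of VEGF-A, read 163, 208, 189.5 and 174 with OHT and 273, 288, 232 and 206 without OHT, with arrays that overlap slightly, and was called lower (log2 difference -0.41, adjusted p = 0.00823). The second NRP1 probe set above the filter had a log2 difference of 0.018 (adjusted p = 0.943). The partners SEMA3E and SEMA7A lay below the filter.

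**Figure D3:**
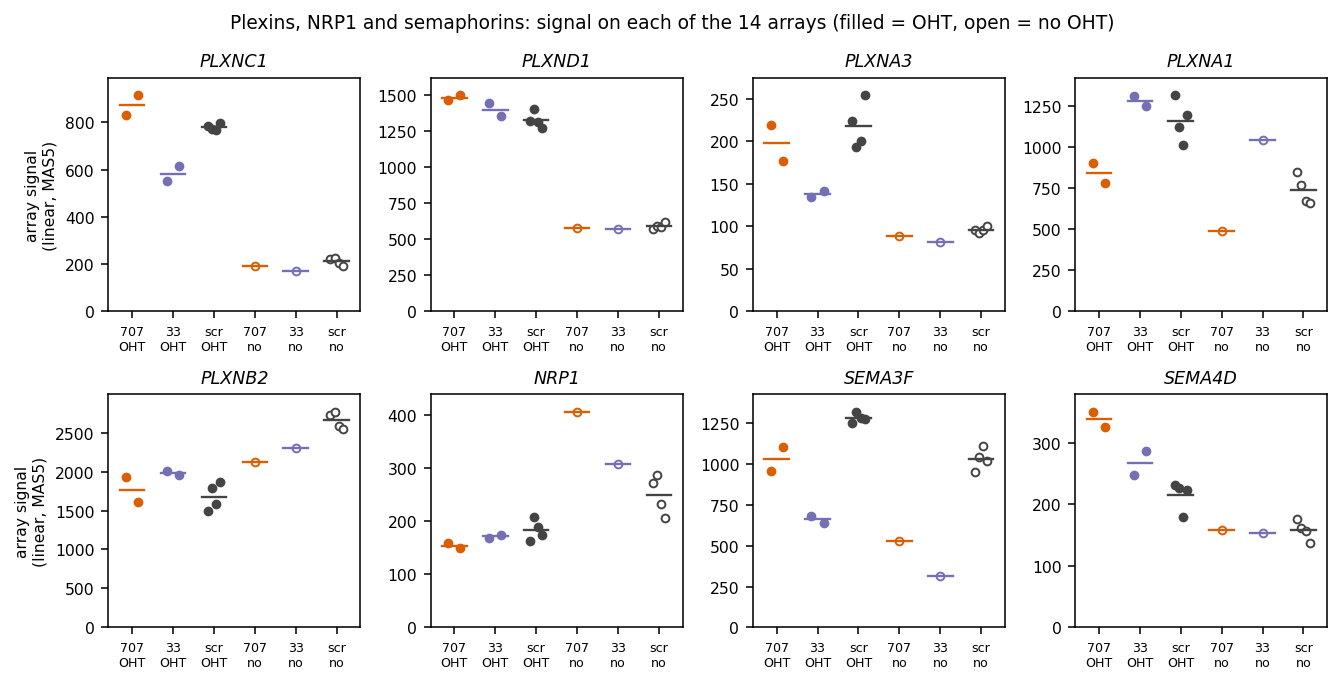
Signal on each of the 14 arrays for 5 plexins, NRP1, SEMA3F and SEMA4D, in linear MAS5 units, with arms ordered shFOXO707, shFOXO33 and scrambled (scr) with OHT (filled) and then without OHT (open). Lines are arm means. PLXNC1, PLXND1 and PLXNA3 lie higher with OHT in every arm, and SEMA3F lies lower in both FOXO hairpin arms than in scrambled cells under the same treatment.

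Ephrin ligands rose in 3 of 5 tested members and fell in 1. EFNA5, a lipid-anchored ligand of EphA receptors, read 247, 334, 329 and 259 with OHT, against 109, 116, 124 and 185 without OHT (log2 difference 1.06, adjusted p = 0.000341). EFNB3, a transmembrane ligand of EphB receptors, read 691, 694, 658 and 617 with OHT and 428, 399.6, 394 and 462 without OHT (log2 difference 0.64, adjusted p = 5.78e-05). EFNA3 stood at 269.7 to 349 with OHT and 96.1 to 249 without OHT (log2 difference 0.75, adjusted p = 0.006). EFNA4 moved the other way, with 107, 145, 156 and 113 with OHT and 251, 261, 295 and 340.1 without OHT. Its log2 difference was -1.05 (SE 0.13, adjusted p = 7.46e-06). EFNA1 was not called (log2 difference -0.028, adjusted p = 0.875).

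Every tested Eph receptor was called, 2 higher and 3 lower, against 24.0% and 46.4% of all tested genes, and receptors of the same class went opposite ways. EPHB6, which lacks kinase activity, read 1060, 1118, 1188 and 1093 with OHT, against 373, 393, 377 and 312 without OHT. Its mean was 1115 ± 54.6 (SD, n = 4) with OHT and 364 ± 35.6 (SD, n = 4) without OHT, a log2 difference of 1.58 (SE 0.085, adjusted p = 1.78e-09). EPHB4, the receptor of EFNB2, read 1427, 1514, 1034 and 1412 with OHT and 642, 537, 788 and 777 without OHT (log2 difference 0.96, adjusted p = 1.71e-05). EPHB3 read 85, 87, 78 and 113 with OHT, against 221, 211, 212 and 182 without OHT, and was lower with a log2 difference of -1.07 (SE 0.12, adjusted p = 1.67e-06). EPHA4, which binds ephrins of both classes, read 56.1, 33.9, 35.4 and 57.2 with OHT and 188, 132, 146 and 106 without OHT (log2 difference -1.37, adjusted p = 5.12e-05). EPHB1, a receptor of B-class ephrins, stood at 51.3 to 129 with OHT and 101 to 206 without OHT, with overlapping arrays (log2 difference -0.76, adjusted p = 0.0474). Under each of the other scalings 2 Eph receptors were called higher and 2 lower.

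**Figure D4:**
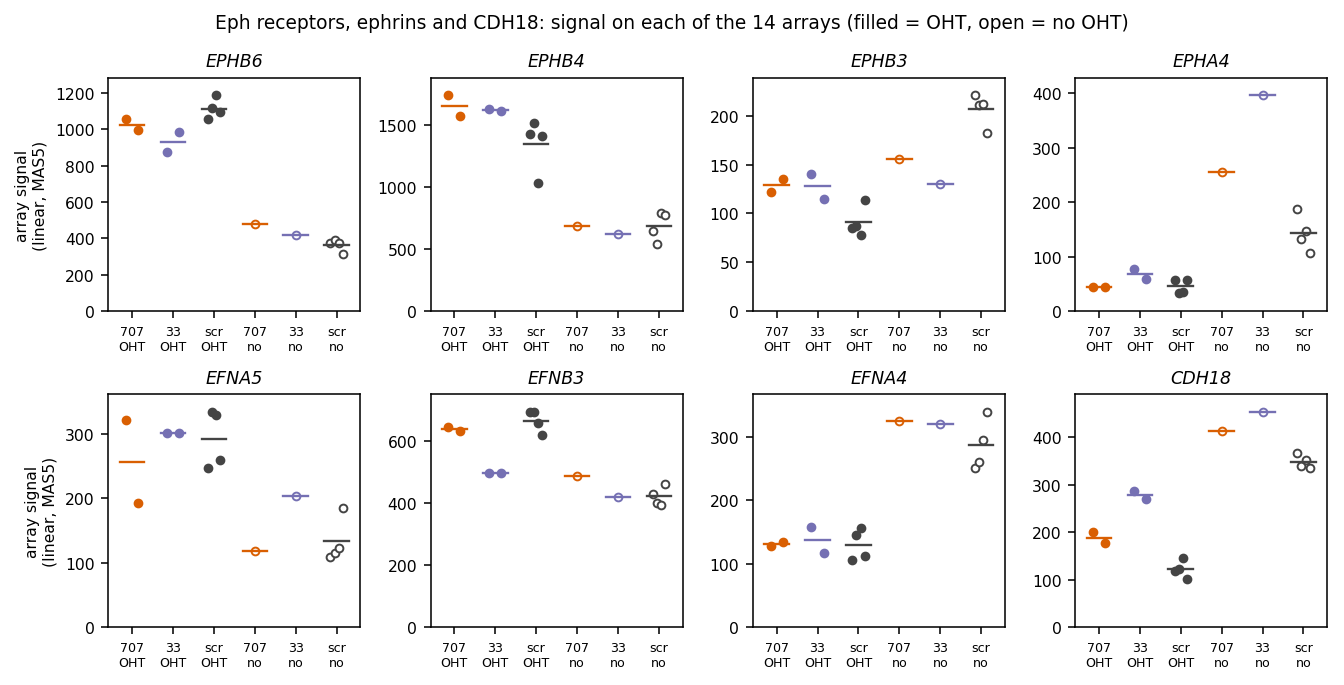
Signal on each of the 14 arrays for 4 Eph receptors, 3 ephrins and CDH18, in linear MAS5 units, with arms ordered shFOXO707, shFOXO33 and scrambled (scr) with OHT (filled) and then without OHT (open). Lines are arm means. EPHB6 and EPHB4 are higher and EFNA4, EPHA4 and CDH18 lower with OHT in every arm, and EPHB3 without OHT is highest in scrambled cells.

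The intracellular partners of these receptors were counted from 4 lists, and the genes named are those with the smallest adjusted p in each direction, not those with the largest differences. Of 25 tested integrin adhesion complex partners, 6 were higher and 15 lower with OHT in scrambled cells. Over all tested genes, the shares to set beside these and the next 3 lists were 24.0% higher and 46.4% lower. The kindlin FERMT2 (0.85), the kinase SRC (0.53) and the adaptor CRKL (0.41) were among the rises. The adaptor NEDD9 (-2.87), the tensin TNS1 (-1.79) and the paxillin relative TGFB1I1 (-1.74) were among the falls. Of 14 catenins and other cadherin partners, 4 were higher and 7 lower, among them NECTIN3 (1.82), CTNND2 (1.18) and PTPRM (0.59) upward and PKP4 (-0.87), NECTIN2 (-0.81) and CTNNA1 (-0.29) downward. Of 16 genes of semaphorin and plexin signalling, 4 were higher and 7 lower. DPYSL2 (1.34), the CRMP2 protein of semaphorin signalling in axons, the exchange factor ARHGEF11 (0.64) and RND2 (0.51) rose, and FES (-0.57), RRAS (-0.41) and MICAL2 (-0.35) fell. Ephrin and Eph signalling had 8 higher and 3 lower of 15. The rises included ITSN2 (1.37), TIAM1 (1.16) and INPPL1 (0.62), and the falls were ABL2 (-1.19), ADAM10 (-0.58), the protease that sheds ephrins, and PIK3R1 (-0.55). After median centring the counts were 7 and 10 of 25, 4 and 5 of 14, 6 and 1 of 16, and 8 and 3 of 15. Over all 7720 genes the counts moved from 1854 higher and 3585 lower to 2494 and 2366. The tilt of the semaphorin list turned with the scaling, as did that of all tested genes.

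The same response was measured in knockdown cells, with the hairpins pooled into 4 arrays with OHT and 2 without. There 14 of the 41 members were called higher and 9 lower, against 20.6% and 37.3% of all tested genes. PLXNC1 read 833 and 915 with shFOXO707 and OHT against 193 without OHT, and 551 and 613 with shFOXO33 and OHT against 171 without OHT. ITGB4 read 261 and 285 with shFOXO707 and OHT against 71.6 without OHT, and 246 and 233 with shFOXO33 and OHT against 52.8 without OHT. Both rises were present with each hairpin, as log2 differences of 2.09 for PLXNC1 and 1.72 for ITGB4 with shFOXO707, and of 1.67 for PLXNC1 and 1.89 for ITGB4 with shFOXO33. EPHA4 fell to 44.4 and 43.9 with shFOXO707 and OHT, against 255 without OHT, and to 76.7 and 58.4 with shFOXO33 and OHT, against 396 without OHT (log2 difference -2.24, adjusted p = 6.02e-06; hairpins pooled). The other large differences were 1.30 for EPHB4, 1.30 for PLXND1 and 1.09 for EPHB6 upward, and -1.63 for ITGB8 and -1.18 for EFNA4 downward. NRP1 read 158 and 150.0 with shFOXO707 and OHT against 407 without OHT, and 169 and 175 with shFOXO33 and OHT against 308 without OHT, a log2 difference of -1.05 (SE 0.15, adjusted p = 3.79e-05). Leaving out scrambled array 1 or 2 without OHT made another NRP1 probe set the brightest, and the log2 difference was then -0.145, with an adjusted p of 0.654 or 0.655. EFNA5 and SEMA4C were called higher with overlapping arrays. SEMA3F was called higher in these cells (log2 difference 0.98, adjusted p = 0.00109). Taken singly, shFOXO707 cells had 15 members higher and 10 lower with OHT (22.5% and 40.9% of all tested genes), and shFOXO33 cells 12 higher and 10 lower (21.5% and 39.9%). With the hairpins kept apart in 1 fit, 16 were higher and 15 lower (24.8% and 48.2%). Each hairpin has 1 array without OHT, and leaving out that of shFOXO707 lowered the count of rises to 10.

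Knockdown and scrambled cells were compared first with the hairpins pooled, where a call does not require a call with each hairpin. With OHT, knockdown cells had 6 of the 41 members above scrambled cells and 2 below, and 14.7% and 8.01% of all tested genes were called in these directions. The arrays of all 8 called members did not overlap between the groups, a count not made over all tested genes. CDH18 read 199.8 and 177 with shFOXO707 and 287 and 269 with shFOXO33, against 119, 122, 146 and 102 in scrambled cells. This was the largest rise at 0.83 (SE 0.14, adjusted p = 0.00101), and CDH18 is also the cadherin that OHT lowered most. ITGA2 read 127 and 153 with shFOXO707 and 99.1 and 95.5 with shFOXO33, against 61.4, 74.5, 69.6 and 74.7 in scrambled cells (log2 difference 0.63, adjusted p = 0.00425). SEMA4D read 350.3 and 326 with shFOXO707 and 247 and 286 with shFOXO33, against 231, 226, 179 and 224 in scrambled cells (log2 difference 0.46, adjusted p = 0.0134). The shFOXO33 arrays lie closer to the scrambled ones than the shFOXO707 arrays do, and shFOXO33 alone was not called for SEMA4D (log2 difference 0.29, adjusted p = 0.0632). EPHB3 read 122 and 136 with shFOXO707 and 141 and 115 with shFOXO33, against 85, 87, 78 and 113 in scrambled cells (log2 difference 0.44, adjusted p = 0.0149). ITGB3BP (log2 difference 0.24, adjusted p = 0.0177) and ITGB1 (log2 difference 0.20, adjusted p = 0.00135) made small rises. In a limma fit with the replicate number as a block, 3 of these calls were lost. They were SEMA4D (adjusted p = 0.115), EPHB3 (adjusted p = 0.0764) and ITGB3BP (adjusted p = 0.0549). The ITGB3BP call was also lost without scrambled array 4 with OHT (adjusted p = 0.0565). With the hairpins kept apart in the fit, 11 members were higher and 9 lower, against 26.4% and 20.7% of all tested genes. CDH2 and ITGBL1 were not called with the hairpins pooled but were called with each hairpin. Their log2 differences with shFOXO707 and shFOXO33 were 0.29 and 0.27 for CDH2, and -0.70 and -0.41 for ITGBL1. Other probe sets differed, with -0.21 and -0.044 for CDH2, and 0.13 and -0.50 for ITGBL1.

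SEMA3F, which signals through NRP2 and A-class plexins, fell under both treatments. With OHT it read 958 and 1104 with shFOXO707 and 681 and 641 with shFOXO33, against 1253, 1322, 1282 and 1276 in scrambled cells, a log2 difference of -0.63 (SE 0.17, adjusted p = 0.017). Without OHT it read 529 with shFOXO707 and 318 with shFOXO33, against 954, 1044, 1109 and 1018 in scrambled cells (log2 difference -1.29, adjusted p = 0.00202). Each hairpin lowered SEMA3F under each treatment, with log2 differences of -0.32 for shFOXO707 and -0.94 for shFOXO33 with OHT, and -0.94 and -1.65 without OHT. Of its 3 probe sets above the filter, the one with the lowest mean was also called lower in both comparisons, and the other was not called. ITGB5 was lower with OHT by a small margin (log2 difference -0.15, adjusted p = 0.0375), a call lost on leaving out any 1 of 8 arrays, after quantile normalization (adjusted p = 0.0758), without the filter (adjusted p = 0.0559) and without the variance trend (adjusted p = 0.0664). For the mean of the ITGB5 probe sets the log2 difference was -0.023 (adjusted p = 0.826). With the replicate number as a block in limma, the calls with OHT of SEMA3F (adjusted p = 0.0587) and ITGB5 (adjusted p = 0.0995) were lost.

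Without OHT, 1 of the 41 members was higher and 2 were lower in knockdown cells, against 4.84% and 2.97% of all tested genes, with 1 array per hairpin. EPHA4 read 255 with shFOXO707 and 396 with shFOXO33, against 188, 132, 146 and 106 in scrambled cells (log2 difference 1.09, adjusted p = 0.019). Both knockdown arrays lie above the 4 scrambled ones, but without the shFOXO33 array the difference was 0.79 (adjusted p = 0.152) and without scrambled array 4 it was 0.98 (adjusted p = 0.0506). The 2 members called lower were SEMA3F, above, and ITGB5 (log2 difference -0.22, adjusted p = 0.0406). The ITGB5 call was lost on leaving out any 1 of 11 arrays, and for the mean of its probe sets (-0.15, adjusted p = 0.287). EPHB3 read 155 with shFOXO707 and 131 with shFOXO33, against 221, 211, 212 and 182 in scrambled cells, and was not called (log2 difference -0.49, adjusted p = 0.0508). With the hairpins kept apart, 7 members were higher and 8 lower (15.4% and 15.3% of all tested genes). Singly, shFOXO707 had 6 higher and 7 lower (14.6% and 13.0%), and shFOXO33 had 5 higher and 6 lower (14.6% and 14.8%).

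Whether the OHT response itself differed was tested as an interaction, knockdown minus scrambled. Of the 41 members 0 were called in either direction (limma), 9 had an unadjusted p under 0.05, and 0.0777% of all tested genes were called higher and 0.272% lower. EPHB3 came closest, with a difference of 0.93 (SE 0.18, adjusted p = 0.0511). It was called in 9 of the alternatives run, with an adjusted p from 0.00523 to 0.0480 among these. The log2 difference of EPHB3 with OHT was -0.14 in knockdown cells and -1.07 in scrambled cells. EPHB6 (log2 difference -0.49, adjusted p = 0.147), NRP1 (log2 difference -0.65, adjusted p = 0.185), PLXNB2 (log2 difference 0.42, adjusted p = 0.223), EPHA4 (log2 difference -0.88, adjusted p = 0.33), SEMA4D (log2 difference 0.47, adjusted p = 0.361) and SEMA3F (log2 difference 0.67, adjusted p = 0.366) followed. With the hairpins kept apart, 4 members were called higher (CDH18, EPHB3, PLXNB2 and SEMA3F) and 3 lower (EFNB3, EPHB6 and NRP1), against 4.96% and 4.73% of all tested genes in that fit. The 2 arrays of knockdown cells without OHT limit the precision of this comparison.

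The hairpins differed from each other in 15 members. With OHT, 9 of the 41 members were higher and 6 lower with shFOXO707 than with shFOXO33, against 22.1% and 21.4% of all tested genes. The arrays of all 15 were apart, a count not made over all tested genes. ITGA5 read 132 and 114 with shFOXO707 and 713 and 673 with shFOXO33, and 248, 216, 273 and 239 in scrambled cells. The hairpins lie on opposite sides of the scrambled arrays, at -0.91 (adjusted p = 2.59e-06) for shFOXO707 and 1.45 (adjusted p = 1.01e-08) for shFOXO33, and the difference between them was -2.36 (SE 0.11, adjusted p = 1.8e-10). Without OHT the order was the same, with 213 with shFOXO707 and 853 with shFOXO33, against 482, 446, 434 and 449 in scrambled cells. The pooled knockdown difference of ITGA5 (log2 difference 0.27, adjusted p = 0.747) therefore describes neither hairpin.

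Both ITGB3 and ITGB8, partners of ITGAV, were lower with shFOXO33 than with shFOXO707. ITGB3 read 167 and 127 with shFOXO707 and 42.6 and 55.7 with shFOXO33, and 124, 116, 111 and 99.4 in scrambled cells. Its difference between the hairpins was 1.32 (SE 0.18, adjusted p = 1.98e-05), with 0.34 (adjusted p = 0.0956) for shFOXO707 and -0.99 (adjusted p = 8.32e-05) for shFOXO33 against scrambled cells. The other ITGB3 probe set above the filter had 0.0020 (adjusted p = 0.996) between the hairpins. ITGB8 read 158 and 119 with shFOXO707 and 66 and 63.9 with shFOXO33, and 156, 135, 86.2 and 144 in scrambled cells (log2 difference 0.92, adjusted p = 0.00125; between the hairpins). Its other probe set had 0.17 (adjusted p = 0.432). Without OHT, ITGB8 read 467 with shFOXO707 and 229.8 with shFOXO33, against 475 to 517 in scrambled cells.

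Plexins and semaphorins also split. PLXNC1 was higher with shFOXO707, at 833 and 915, than with shFOXO33, at 551 and 613 (log2 difference 0.57, adjusted p = 0.000178), and scrambled cells read 767 to 796. SEMA3F was lower than in scrambled cells with both hairpins and less so with shFOXO707 (log2 difference 0.63, adjusted p = 1.28e-05). PLXNA3 was 0.47 (adjusted p = 0.0212) between the hairpins, a call lost without any 1 of 3 of the 4 hairpin arrays with OHT. PLXNA1 read 901 and 781 with shFOXO707 and 1308 and 1250 with shFOXO33 (log2 difference -0.60, adjusted p = 0.001), and its other probe set had -0.58 (adjusted p = 0.00188). SEMA4C read 955 and 727 with shFOXO707 and 1218 and 1350 with shFOXO33 (log2 difference -0.61, adjusted p = 0.00335), a call lost without shFOXO707 array 2. SEMA4F was lower with shFOXO707 (log2 difference -0.68, adjusted p = 0.00463), but without probe sets that can bind several transcripts its difference was 0.27 (adjusted p = 0.203). CDH18 was above scrambled cells with both hairpins and lower with shFOXO707 than with shFOXO33 (log2 difference -0.53, adjusted p = 0.00488). Smaller differences were called for ITGA2 (0.46), ITGA6 (0.37), EFNB3 (0.35), SEMA3C (0.30) and CDH11 (-0.32). None of the 5 tested Eph receptors was called between the hairpins, and the widest 95% interval among them, that of EPHB1, ran from -1.23 to 0.071. Against scrambled cells with OHT, 10 members were higher and 7 lower with shFOXO707 (24.6% and 17.2% of all tested genes), and 10 higher and 12 lower with shFOXO33 (27.8% and 21.5%). The shFOXO707 counts were 4 higher and 6 lower without its array 1 with OHT, and 6 higher and 4 lower without its array 2. The shFOXO33 counts were 6 higher and 7 lower without its array 1 with OHT, and 6 higher and 10 lower without its array 2.

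**Figure D5:**
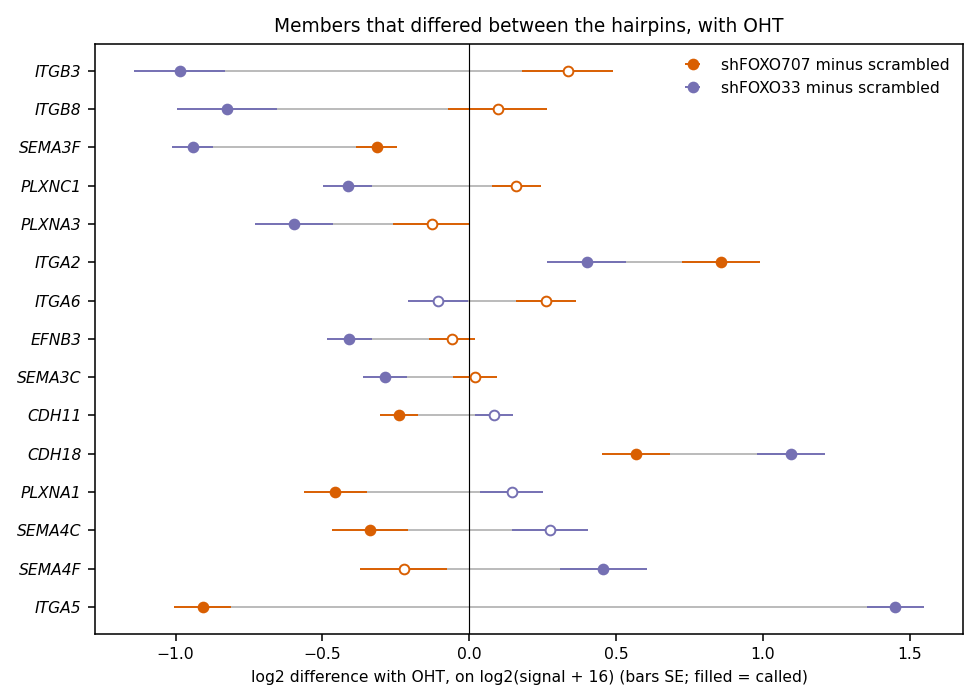
Log2 difference from scrambled cells with OHT for the 15 members called between the hairpins, with shFOXO707 in orange and shFOXO33 in purple (2 arrays each, 4 scrambled arrays). Bars are SE and filled points are called against scrambled cells. ITGA5 lies at -0.91 with shFOXO707 and 1.45 with shFOXO33, and ITGB3 at 0.34 with shFOXO707 and -0.99 with shFOXO33.

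The 47 members below the filter had mean signals from 6.05 to 85.5 and array signals from 0.321 to 203. Among them were CDH1 (E-cadherin), CDH3, CDH5 of endothelium, the leukocyte integrins ITGAL, ITGAM, ITGAX and ITGB2, the platelet subunit ITGA2B, NRP2, SEMA3A, SEMA3E, SEMA7A, EFNB1 and EFNB2. NRP2, the co-receptor of SEMA3F, averaged 39.9 with OHT and 36.4 without OHT in scrambled cells, against a filter at 79.1. In a fit of all 11963 genes without the filter, 2 of the 47 were called higher with OHT in scrambled cells, CDH7 (1.68) and EFNA2 (1.61), and 9 were called lower, against 17.2% and 33.5% of all 11963 genes. With OHT, SEMA3E was called higher (1.005) and EPHA7 lower (-0.78) in knockdown than in scrambled cells in that fit, against 8.25% and 4.58% of all genes. These 4 genes were picked out after their values were seen. SEMA3E, the ligand of PLXND1, averaged 110.0 with shFOXO707 and 76.5 with shFOXO33, against 37.5 in scrambled cells.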

How the data were processed

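RNA of 14 samples of U2OS cells was measured on 1 Affymetrix array each. The authors deposited MAS5 signal intensity values per probe set on a linear scale, per the submitters' processing notes, which give no version. In the deposited values the mean without the lowest and highest 2% of probe sets is 500 on every array, so a comparison assumes that this mean is unchanged. Of 22277 probe sets, 19064 were annotated to 1 gene, 1043 to several and 2108 to none, and 62 were controls. Symbols were updated by Entrez ID through the RefSeq table for 19052 of them. ITGB6, measured only by probe sets naming several genes, was left out, and 1 gene of these families is not reported here.

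Signals were analysed as log2(signal + 16), which understates changes of low signals. Probe sets below the 40th percentile of mean log2 (6.57, a signal of 79.1) were left out, which kept 11438, and the one with the highest mean stood for each of 7720 genes. limma 3.58.1 in R 4.3.3 (lmFit, eBayes with trend, two-sided) was fitted to all 14 arrays. OHT effects, pooled knockdown effects and their interaction came from 4 groups with the hairpins pooled, and comparisons of single hairpins from 6 groups, where groups of 1 array borrow the spread of the others. Benjamini-Hochberg adjustment ran over all 7720 genes at 0.05. The procedure was tested on simulated data. The labels do not say whether replicates are separate cultures, so the p-values reflect only variation among these arrays, possibly technical.

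Genes named with tests were the called members with arrays that did not overlap: at most 14 each way for OHT in scrambled cells, 8 for knockdown with OHT, 4 for knockdown without OHT, 5 further ones for OHT in knockdown cells, 4 in the interaction (where 0 were called) and 5 between the hairpins, taken by size, plus the 3 partner genes with the smallest adjusted p each way per list. FOXO1, FOXO3 and E2F1 checked the labels. Other tested members were named after their values were seen. Members and lists were chosen with earlier results of these data known. Alternatives changed the pseudocount, scaling, filter, variance trend, choice of probe set, grouping and replicates.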

Additional observations from a re-analysis of the deposited data

Results flagged for a closer look

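In 5 of the 102 groups of 4 arrays examined, 1 array stood apart from the other 3 by Dixon's ratio of gap to range at its 95% critical value. Chance gives about 1 such group in 20. EFNA5 in knockdown cells with OHT had 1 array at 191.9 and the others at 300.7, 301.3 and 320.8 (ratio 0.873). PLXNB2 in the same cells had 1 array at 1603 and the others at 1932 to 2005 (ratio 0.835), and ITGB1 had 1 at 12530 and the others at 11780 to 11890 (ratio 0.849). SEMA4D in scrambled cells with OHT had 1 array at 179.3 and the others at 223.6 to 231.4 (ratio 0.864). CDH11 in scrambled cells without OHT had 1 array at 916.2 and the others at 1022 to 1038 (ratio 0.878).

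The hairpins, directed against the same genes, differed from each other with OHT in 15 members by limma's test of the difference, and each value is the log2 difference of shFOXO707 minus shFOXO33. The integrin subunits were ITGB3 (1.321), ITGB8 (0.922), ITGA2 (0.457), ITGA6 (0.369) and ITGA5 (-2.358). The plexins and semaphorins were SEMA3F (0.626), PLXNC1 (0.574), PLXNA3 (0.467), SEMA3C (0.305), PLXNA1 (-0.599), SEMA4C (-0.613) and SEMA4F (-0.679). The others were EFNB3 (0.348), CDH11 (-0.321) and CDH18 (-0.527).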

How the results depend on the processing

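Counts are of the 41 tested members unless a filter changed their number. In scrambled cells with OHT, 10 were lower after median centring, and 9 were higher and 7 lower with a filter at the 60th percentile, which tests fewer genes. In knockdown cells with OHT against no OHT, 14 were lower without the filter, 9 were higher and 3 lower with the 60th percentile filter, and 15 were lower with 6 title groups. For knockdown with OHT, 2 were higher with the 60th percentile filter, 1 was lower without the variance trend, 11 were higher and 9 lower with 6 title groups, 10 and 12 with only shFOXO33 arrays, and 11 and 6 with only shFOXO707 arrays. For knockdown without OHT, 2 were higher with a pseudocount of 64, 4 were lower after median centring, 4 were higher and 4 lower after quantile normalization, 1 was lower without the filter, 7 were higher and 8 lower with 6 title groups, and 5 and 6 with the arrays of either hairpin alone. In the interaction 1 was higher with a pseudocount of 64, median centring, quantile normalization, no variance trend, the mean of probe sets and no _x_at probe sets, 4 were higher and 3 lower with 6 title groups, 5 were higher with only shFOXO33 arrays, and 2 were higher and 1 lower with only shFOXO707 arrays. Against scrambled cells with OHT, 6 were higher and 7 lower with shFOXO33 under the 60th percentile filter, and 3 were lower with shFOXO707 for the mean of probe sets. Leaving out 1 array gave 15 to 16 higher and 13 to 16 lower for OHT in scrambled cells, 6 to 9 and 1 to 3 for knockdown with OHT, 1 to 2 and 1 to 3 for knockdown without OHT, 10 to 14 and 8 to 11 for OHT in knockdown cells, 0 to 1 and 0 to 0 for the interaction, 6 to 11 and 4 to 7 between the hairpins, 6 to 11 and 7 to 13 for shFOXO33, and 4 to 12 and 4 to 8 for shFOXO707. Of the values of named genes, 1176 kept direction and side of the threshold, 59 lost the call and 2 changed sign, ITGB5 with OHT after median centring (0.052) and SEMA4F between the hairpins without _x_at probe sets (0.271). The cause of these changes was not tested. Deviations of scrambled arrays with the same number correlated at 0.027, 0.046, 0.024 and -0.015, and 2 of 4 correlated best with their own number. Values this small give no sign of pairing but cannot settle whether the numbers pair the samples, and hairpin arrays were not examined. A replicate block gave 3 higher and 1 lower for knockdown with OHT, 5 higher for shFOXO33 and 6 higher for shFOXO707. Signals near the filter of 79.1, such as EPHA4, EPHB3 and ITGA2 with OHT, limit the precision of their differences.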
